A study of Rattus norvegicus with 30 samples.

Results

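Prostanoids are short-lived lipid signals made from arachidonic acid, and the genes described here make them, sense them or remove them. The set was given by name and not by measured values: Ptgs1, Ptgs2, Ptgis, Ptgir, Ptges, Ptgds, Ptger2, Ptger4, Hpgd and Tbxas1. Of these 10 genes, 9 have a row among the 30562 rows of the deposited table, and 8 are among the 16171 genes that passed the filter on low counts. Ptges was not analysed here, and Ptger2 had too few counts to be tested in the main fit.

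The cells were CD31+ cells of wild-type rat lung, sorted with beads 3 weeks after a sham operation or a Glenn operation, in which a caval vein is joined to a pulmonary artery so that this lung is perfused without the blood that comes from the liver. After surgery the rats ate a vitamin A control, deficient or excess diet, which gives 6 groups of 5 libraries: sham control, sham deficient, sham excess, Glenn control, Glenn deficient and Glenn excess. The question for each gene was whether its level differed between Glenn and sham, on each diet, and between diets after the same operation. Nothing in the labels says that the 5 libraries of a group came from separate animals, so each p-value measures only the spread between these samples. Strain, age and sex are not given in the sources used here.

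As background, the cyclooxygenases Ptgs1 and Ptgs2 turn arachidonic acid into the common precursor of all prostanoids. Terminal synthases then make prostacyclin (Ptgis), thromboxane (Tbxas1) or prostaglandin D (Ptgds). Prostacyclin from endothelium relaxes vascular smooth muscle through the receptor Ptgir and a rise in cAMP, while thromboxane constricts vessels and activates platelets. Ptger2 and Ptger4 are the prostaglandin E receptors that raise cAMP. The lung clears prostaglandins from the blood by uptake through the transporter Slco2a1 and oxidation by Hpgd, the 15-hydroxyprostaglandin dehydrogenase.

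Totals of the libraries ran from 22 to 77.6 M estimated counts (M, mega), with a median of 40 M. Levels are given in CPM, counts as parts of the library's total brought to a common total with TMM scaling factors, and are not corrected for gene length, so they are compared between libraries and not between genes. The endothelial markers Pecam1 (862.6 to 1731 CPM) and Cdh5 (1557 to 2926 CPM) were present in every library. RNA of other lung cells was present too: the 5 markers of type 2 alveolar cells summed to 30750 ± 5536 CPM (SD, n = 15) after sham and 23320 ± 6208 (n = 15) after Glenn. The libraries also fell into 2 sets by RT1-CE16, a class I gene of the rat major histocompatibility complex, at 21.9 to 44.4 CPM in 17 libraries and 407 to 949 in 13. All 5 sham excess libraries were in the low set, and all 8 libraries of a later number range in the library names (series B) were in the high set.

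The bases just before the start sites are shown for the 5 of the 8 tested genes that passed the test between operations, 3 higher and 2 lower, as a view of the sequence in front of each; 48.2% of all tested genes passed the same test (edgeR). The windows hold 250 bases and are from RefSeq on build GRCr8, which is not the build the authors counted on (mRatBN7.2), and 9 of the 10 genes matched the table (Ptgis did not). Capitals mark matches, on either strand, to 6 motifs by their letters: TGACG (the core of the cAMP response element), CACGTG (an E-box), GGGCGG (a GC box), AGGTCA (a half-site of retinoic acid receptors), GGCGCC (the core of a BMP SMAD element) and TATAAA (the core promoter box).
Ptgs2, chr13:64713813-64714062, plus strand: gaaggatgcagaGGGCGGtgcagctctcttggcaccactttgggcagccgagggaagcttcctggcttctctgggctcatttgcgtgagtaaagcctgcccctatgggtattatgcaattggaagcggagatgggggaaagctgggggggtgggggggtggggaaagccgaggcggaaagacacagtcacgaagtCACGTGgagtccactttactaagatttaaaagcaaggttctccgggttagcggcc
Ptger4, chr2:56073523-56073772, minus strand: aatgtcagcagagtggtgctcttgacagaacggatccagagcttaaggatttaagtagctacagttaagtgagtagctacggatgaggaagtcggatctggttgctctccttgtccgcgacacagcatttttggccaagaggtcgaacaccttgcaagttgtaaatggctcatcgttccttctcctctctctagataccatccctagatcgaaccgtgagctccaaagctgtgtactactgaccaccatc
Ptgir, chr1:86707440-86707689, plus strand: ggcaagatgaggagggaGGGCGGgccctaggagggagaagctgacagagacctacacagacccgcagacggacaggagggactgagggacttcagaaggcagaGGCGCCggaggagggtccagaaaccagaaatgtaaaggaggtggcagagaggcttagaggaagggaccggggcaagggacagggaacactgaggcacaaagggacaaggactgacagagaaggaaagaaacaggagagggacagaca
Hpgd, chr16:39034832-39035081, minus strand: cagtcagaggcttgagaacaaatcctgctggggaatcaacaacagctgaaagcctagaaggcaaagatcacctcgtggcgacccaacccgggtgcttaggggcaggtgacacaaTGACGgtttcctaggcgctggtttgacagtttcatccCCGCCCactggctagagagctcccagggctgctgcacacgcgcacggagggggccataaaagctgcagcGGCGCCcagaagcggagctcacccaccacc
Tbxas1, chr4:68631635-68631884, plus strand: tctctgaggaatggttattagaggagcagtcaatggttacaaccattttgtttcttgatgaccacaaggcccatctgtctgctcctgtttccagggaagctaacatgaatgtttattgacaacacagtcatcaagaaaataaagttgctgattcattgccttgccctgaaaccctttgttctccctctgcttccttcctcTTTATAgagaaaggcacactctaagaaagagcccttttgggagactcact
The Ptgs2 window holds the E-box 55 to 50 bases before the start and a GC box 238 to 233 bases before it, and 5.59% of all 33469 windows of this length hold the E-box letters. In the Hpgd window the cAMP response element half-site lies 136 to 132 bases before the start, and 18.2% of all windows hold those letters. Both Ptgir and Hpgd hold GGCGCC, which 8.69% of windows hold, and GGGCGG, which 30.5% hold. Tbxas1 has TATAAA on the opposite strand 50 to 45 bases before its start (12.9% of windows), and no searched letters were found in the Ptger4 window. AGGTCA, in 14.1% of all windows, was found in none of these 5 windows. No 2 matches overlap in the windows shown. A match is a description of letters, not of a bound site.

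After Glenn surgery, averaged over the 3 diets, Ptgs2, Ptgir and Ptger4 rose and Hpgd and Tbxas1 fell. That is 5 of the 8 tested genes, 3 higher and 2 lower, where 48.2% of all tested genes passed the same threshold (edgeR, adjusted p under 0.05), 23.4% higher and 24.7% lower. All 5 changed by at least 2-fold, as did 8.76% of all tested genes. Ptgs1, Ptgis and Ptgds did not pass. The median log2 change of the 8 genes was 0.14, against -0.013 for all tested genes. By diet, 4 of 8 genes changed on the control diet (24.9% of all genes), 5 on the deficient diet (27.4%) and 5 on the excess diet (21.9%). Ptgs2, Ptger4, Hpgd and Tbxas1 changed in the same direction on all 3 diets, as 13.5% of all genes did.

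**Figure D1:**
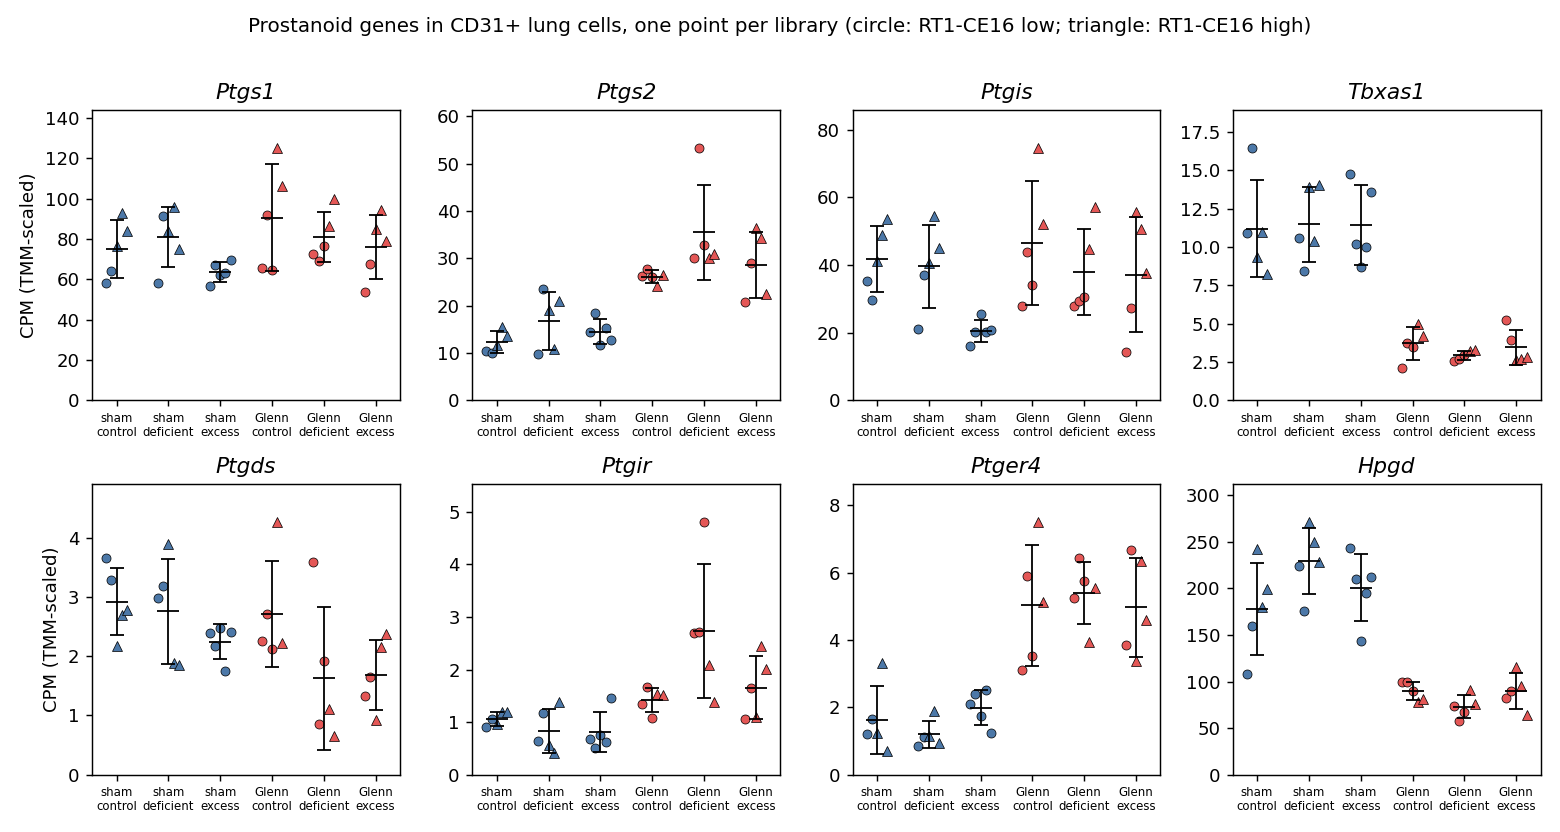
TMM-scaled CPM (y axis, from 0) of the 8 tested prostanoid genes in each of the 30 libraries, by group (x axis, blue sham, red Glenn). Black marks are the mean and SD of 5 libraries, circles have low and triangles high RT1-CE16; Tbxas1 shows no overlap between sham (8.25 to 16.5 CPM) and Glenn (2.10 to 5.21 CPM).

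Ptgs2 is the inducible cyclooxygenase. Ptgs2 on the control diet was at 10.4, 9.96, 11.7, 15.6 and 13.6 after sham and 26.2, 27.8, 26.1, 24.2 and 26.6 CPM after Glenn. Ptgs2 on the deficient diet was at 9.85, 23.4, 19.1, 10.8 and 21 after sham and 30.1, 53.4, 32.8, 30.2 and 31 CPM after Glenn. Ptgs2 on the excess diet was at 14.4, 18.4, 11.7, 15.3 and 12.7 after sham and 20.8, 29, 36.4, 34.4 and 22.5 CPM after Glenn. In each diet every Glenn library lay above every sham library, although the 2 operations overlapped across diets because 2 sham deficient libraries, at 23.4 and 21.0 CPM, exceeded the lowest Glenn excess library. Averaged over diets the level was 30.1 ± 7.73 CPM (SD, n = 15) after Glenn and 14.5 ± 4.25 after sham; edgeR gave a log2 of 1.05 (SE 0.125, adjusted p = 6.72e-08). The log2 change was 1.09 on the control diet (SE 0.214, edgeR adjusted p = 0.000296), 1.08 on the deficient diet (SE 0.218, adjusted p = 0.000402) and 0.98 on the excess diet (SE 0.240, adjusted p = 0.00346). Groups that do not overlap were found for 17.2%, 19.6% and 16.3% of all genes on these diets. In the libraries with low RT1-CE16 alone, with 2 Glenn excess and 5 sham excess libraries, the excess diet change was 0.79 (edgeR adjusted p = 0.0689). Summed cell markers moved with Ptgs2 as well. Over all 30 libraries r was 0.77 (mural, that is smooth muscle and pericytes), 0.67 (lymphatic) and -0.83 (general capillary). After group means were removed these were -0.004, -0.001 and -0.38. Macrophage (0.68), fibroblast (0.67) and type 1 alveolar (0.64) sums also moved with Ptgs2, with 0.36, 0.22 and 0.28 within groups. Sums that went the other way included endothelial (-0.69), mast cell (-0.69) and venous (-0.63), with -0.10, -0.07 and -0.14 within groups. The part of these cells in the Ptgs2 result was not tested.

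Ptgs1, the constitutive cyclooxygenase, did not pass the test in any diet. Its level was 82.5 ± 18.8 CPM after Glenn and 73.2 ± 13.5 after sham (SD, n = 15 each); edgeR gave a log2 of 0.12 with a 95% interval of -0.07 to 0.31 (edgeR adjusted p = 0.293). Sham libraries ran from 56.5 to 95.7 CPM and Glenn libraries from 53.6 to 125, so the operations overlapped over nearly the whole range. On the control diet the change was 0.27 (edgeR adjusted p = 0.21), and it passed when RT1-CE16 replaced the series in the fit (0.34, adjusted p = 0.0248), with that level and sex (0.35, adjusted p = 0.0185) and in the libraries with high RT1-CE16 alone (0.47, adjusted p = 0.019). That high set held only 2 Glenn control and 3 sham control libraries. The ratio of Ptgs2 to Ptgs1 counts within a library was 0.112 to 0.280 after sham and 0.193 to 0.773 after Glenn, with medians of 0.182 and 0.388. As Ptgs1 did not pass, this ratio restates the Ptgs2 change and is not a further result.

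Tbxas1 makes thromboxane. Tbxas1 on the control diet was at 10.9, 16.5, 9.35, 11 and 8.25 after sham and 2.1, 3.72, 3.51, 4.99 and 4.23 CPM after Glenn. Tbxas1 on the deficient diet was at 10.6, 8.45, 13.9, 10.4 and 14 after sham and 2.59, 2.69, 2.95, 3.21 and 3.26 CPM after Glenn. Tbxas1 on the excess diet was at 14.8, 10.2, 8.69, 10.01 and 13.6 after sham and 5.21, 3.96, 2.61, 2.67 and 2.8 CPM after Glenn. All 15 Glenn libraries lay below all 15 sham libraries, and Tbxas1 was the 1 gene of the 8 of which this held, as it did for 5.83% of all tested genes. The mean was 3.37 ± 0.908 CPM after Glenn and 11.4 ± 2.55 after sham (SD, n = 15 each); edgeR gave a log2 of -1.76 (SE 0.131, edgeR adjusted p = 3.35e-12). The log2 values by diet were -1.59 (control), -1.98 (deficient) and -1.71 (excess), with edgeR adjusted p of 2.53e-06, 1.35e-07 and 4.64e-06. Platelets and macrophages are known sources of this enzyme. Averaged over diets, all 5 platelet markers fell. By diet, 0 were lower on the control diet, 1 on the deficient diet (Gp9) and 3 on the excess diet (edgeR). The platelet sum went from 59.6 ± 23.9 to 34.4 ± 18.3 CPM (range 25.4 to 101.9 after sham and 21.5 to 94.1 after Glenn), with Ppbp at 0 in 9 of 30 libraries. Of 4 tested macrophage markers, Mrc1 and Csf1r rose and Cd68 fell in the averaged comparison. The sum of all 5 was 32.0 ± 7.87 after sham (20.3 to 48.7) and 48.1 ± 10.5 CPM after Glenn (28.8 to 66.2), with Marco at 0 in 26 libraries. Over the 30 libraries Tbxas1 had r = 0.58 with the platelet sum and -0.74 with the macrophage sum (0.08 and -0.44 after group means were removed). With the general capillary sum, 7525 ± 787.9 CPM after sham and 3292 ± 736.3 after Glenn, r was 0.88 and, within groups, 0.07. With the mural sum, given for Ptgir below, r was -0.88 and, within groups, -0.15. The part of these cells in the Tbxas1 result was not tested. In bulk samples, fewer cells of a type and less RNA per cell cannot be told apart.

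Ptgis makes prostacyclin. Ptgis on the control diet was at 35.3, 29.7, 41.2, 48.9 and 53.7 after sham and 27.9, 43.9, 34.1, 74.7 and 52 CPM after Glenn. Ptgis on the deficient diet was at 21, 37.1, 40.6, 54.4 and 45.1 after sham and 28, 29.4, 30.5, 44.7 and 57.1 CPM after Glenn. Ptgis on the excess diet was at 16.2, 20.1, 25.4, 20.1 and 20.8 after sham and 14.4, 27.3, 55.7, 50.8 and 37.6 CPM after Glenn. Sham and Glenn libraries overlapped on every diet, and the 5 sham excess libraries were a narrow low set. The mean was 40.5 ± 15.6 CPM after Glenn and 34.0 ± 13.1 after sham (SD, n = 15 each); edgeR gave a log2 of 0.16 with a 95% interval of -0.12 to 0.43 (edgeR adjusted p = 0.343). It passed narrowly with the RT1-CE16 level and sex as terms (0.23, edgeR adjusted p = 0.0476). On the excess diet the fitted change was 0.22 (edgeR adjusted p = 0.603) although the means were 37.2 and 20.5 CPM. The fit holds the series as a term: 3 of these Glenn libraries and none of these sham libraries were of series B, in which Ptgis was higher by a log2 of 0.89 (edgeR adjusted p = 0.0149). Without the series term this change was 0.86 (edgeR adjusted p = 0.0381).

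Within a library the ratio of Ptgis to Tbxas1 counts had a median of 2.93 after sham (1.10 to 6.51) and 12.3 after Glenn (2.76 to 21.3). The lowest Glenn ratio, in Glenn excess replicate 1, lay within the sham range. Tbxas1 fell and Ptgis did not pass, so a ratio that differs between operations restates the Tbxas1 change and is not a further result. This ratio is not corrected for gene length and describes only a shift between libraries.

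Ptgds, prostaglandin D synthase, was at 0.651 to 4.26 CPM after Glenn and 1.75 to 3.89 after sham, with means of 2.01 ± 1.00 and 2.64 ± 0.655 (SD, n = 15 each). The averaged log2 change was -0.38 with a 95% interval of -0.77 to 0.02 (edgeR adjusted p = 0.108). Without Glenn deficient replicate 1, which at 3.59 CPM was the highest of its group, the averaged change was -0.57 (edgeR adjusted p = 0.00827), and with the RT1-CE16 level and sex it was -0.47 (adjusted p = 0.0265). On the deficient diet the change was -0.87 (edgeR adjusted p = 0.0596), and it passed in DESeq2 (adjusted p = 0.0381), in limma voom (adjusted p = 0.0328), with RT1-CE16 and sex (-0.87, adjusted p = 0.0343) and without that library (-1.30, adjusted p = 0.00271).

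**Figure D2:**
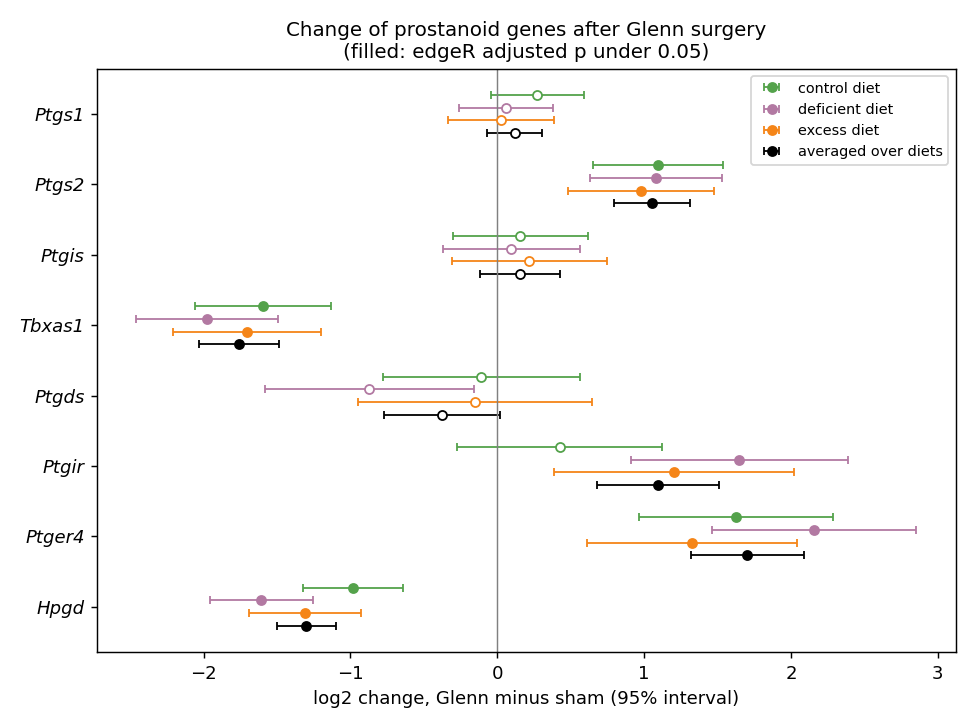
Log2 change between Glenn and sham (x axis) of the 8 tested genes on each diet and averaged, with 95% intervals from edgeR; filled points passed an adjusted p of 0.05. Tbxas1 and Hpgd lie left of 0 and Ptgs2 and Ptger4 right of 0 on all 3 diets, and the intervals of Ptgs1 and Ptgis include 0 throughout.

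Ptger4 is a prostaglandin E receptor that couples to cAMP. Ptger4 on the control diet was at 1.21, 1.64, 1.25, 3.33 and 0.703 after sham and 3.12, 5.9, 3.51, 7.5 and 5.12 CPM after Glenn. Ptger4 on the deficient diet was at 0.853, 1.11, 1.16, 1.9 and 0.953 after sham and 5.24, 6.43, 5.76, 3.93 and 5.56 CPM after Glenn. Ptger4 on the excess diet was at 2.09, 2.38, 1.74, 2.53 and 1.23 after sham and 3.84, 6.68, 3.39, 6.34 and 4.6 CPM after Glenn. The operations did not overlap on the deficient and excess diets, as held for 19.6% and 16.3% of all genes. On the control diet sham replicate 4, at 3.33 CPM, exceeded the lowest Glenn library. The mean was 5.13 ± 1.35 CPM after Glenn and 1.61 ± 0.729 after sham (SD, n = 15 each); edgeR gave a log2 of 1.70 (SE 0.186, edgeR adjusted p = 8.62e-09). The log2 values by diet were 1.63 (control), 2.16 (deficient) and 1.33 (excess), with edgeR adjusted p of 0.000256, 1.28e-05 and 0.00552. Without Glenn excess replicate 2 the excess diet change was 1.09 (edgeR adjusted p = 0.0526). Summed cell markers moved with Ptger4 too. Over all 30 libraries r was 0.80 (lymphatic), 0.795 (mural), 0.64 (fibroblast) and -0.83 (general capillary). After group means were removed these were 0.205, 0.08, 0.53 and -0.22. All lymphatic, mural and fibroblast markers rose in the averaged comparison (edgeR). The part of these cells in the Ptger4 result was not tested.

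Ptgir is the prostacyclin receptor. Ptgir on the control diet was at 0.908, 1.06, 0.959, 1.19 and 1.2 after sham and 1.34, 1.68, 1.07, 1.54 and 1.51 CPM after Glenn. Ptgir on the deficient diet was at 0.646, 1.17, 0.565, 0.409 and 1.37 after sham and 2.69, 2.72, 4.81, 2.09 and 1.39 CPM after Glenn. Ptgir on the excess diet was at 0.681, 0.50, 0.763, 0.619 and 1.46 after sham and 1.06, 1.65, 1.1, 2.45 and 2.01 CPM after Glenn. Only the deficient diet kept the operations apart, by 1.39 against 1.37 CPM, as held for 19.6% of all genes on that diet. Averaged over diets Ptgir was at 1.94 ± 0.967 CPM after Glenn and 0.900 ± 0.331 after sham (SD, n = 15 each); edgeR gave a log2 of 1.09 (SE 0.201, edgeR adjusted p = 4.54e-05). The change was 1.65 on the deficient diet (SE 0.358, edgeR adjusted p = 0.000789), 1.20 on the excess diet (SE 0.396, adjusted p = 0.0274) and 0.42 on the control diet (SE 0.338, adjusted p = 0.402). The interaction of surgery and diet for Ptgir had an unadjusted p of 0.0512 (edgeR adjusted p = 0.874), so a difference between diets was not shown.

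The Ptgir call on the excess diet was lost without sham excess replicate 1, 2 or 4 or Glenn excess replicate 2 or 4 (1.05 to 1.29, edgeR adjusted p = 0.0506 to 0.0631), and with series A alone (0.76, adjusted p = 0.205), only the groups compared (0.76, adjusted p = 0.358) or low RT1-CE16 libraries alone (0.76, adjusted p = 0.278). That low set held 2 Glenn excess and 5 sham excess libraries. With high RT1-CE16 libraries alone, 2 Glenn deficient and 3 sham deficient, the deficient diet change was 1.16 (edgeR adjusted p = 0.145). Smooth muscle and pericytes are known to carry Ptgir. All 8 mural markers, among them Acta2, Myh11 and Pdgfrb, rose in the averaged comparison, and their sum was 268.2 ± 42.1 CPM after sham (174.8 to 359.6) and 813.6 ± 319.7 after Glenn (526.2 to 1788). Over the 30 libraries Ptgir followed the mural sum with r = 0.81, and with r = 0.62 after group means were removed. Libraries share preparation and depth, so these are descriptions. The part of mural RNA in the Ptgir result was not tested.

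Ptger2, the other cAMP-coupled prostaglandin E receptor, had 0 to 16 counts in a library, a median of 4, and 0 counts in 5 libraries. Its mean was 0.114 ± 0.0893 CPM after Glenn and 0.102 ± 0.115 after sham (SD, n = 15 each). In a fit with no filter the averaged log2 change was 0.098 (edgeR unadjusted p = 0.871). A difference was not detectable at this depth.

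Hpgd oxidises prostaglandins to inactive forms. Hpgd on the control diet was at 108, 160, 242, 180.2 and 199 after sham and 99.1, 99.8, 89.96, 78.5 and 81.7 CPM after Glenn. Hpgd on the deficient diet was at 224, 176, 271, 249.6 and 228 after sham and 73.9, 57.3, 67.2, 90.6 and 75.5 CPM after Glenn. Hpgd on the excess diet was at 243, 210.5, 144, 195 and 212 after sham and 82.8, 90.2, 116, 95.7 and 64 CPM after Glenn. Within each diet every Glenn library lay below every sham library. Groups did not overlap for 17.2% (control), 19.6% (deficient) and 16.3% (excess) of all genes. Across diets 1 sham control library, at 107.6 CPM, lay below the highest Glenn library at 116.1. The mean was 84.2 ± 15.5 CPM after Glenn and 202.8 ± 43.9 after sham (SD, n = 15 each); edgeR gave a log2 of -1.30 (SE 0.0975, edgeR adjusted p = 8.93e-12). For Hpgd the log2 values by diet were -0.99 (control), -1.61 (deficient) and -1.31 (excess), with edgeR adjusted p of 4.27e-05, 3.12e-08 and 4.98e-06. In low RT1-CE16 libraries alone, with 3 Glenn control and 2 sham control libraries, the control diet change was -0.46 (edgeR adjusted p = 0.158). The interaction p of Hpgd was 0.0419 unadjusted and 0.87 adjusted (edgeR).

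Slco2a1, the prostaglandin transporter that feeds Hpgd, moved the same way. It was at 1295 to 1759 CPM after sham and 347.8 to 702.9 after Glenn, with no overlap, as held for 5.83% of all tested genes. Its averaged log2 change was -1.58 (SE 0.0793, edgeR adjusted p = 5.89e-16). Among aerocyte capillary markers Car4, Tbx2 and Ednrb fell, Apln and Chst1 rose and Fibin did not pass. The summed level of these 6 was 1402 ± 243.7 CPM after sham (1041 to 1789) and 999.1 ± 113.6 after Glenn (772 to 1201). Over 30 libraries Hpgd followed that sum with r = 0.81, and with r = 0.52 after group means were removed. Other marker sums moved with Hpgd too. Of the 5 general capillary markers, 4 fell (Glp1r, Aplnr, Plvap and Cd93) and Gpihbp1 did not pass, and their sum was 7525 ± 787.9 CPM after sham (5868 to 8885) and 3292 ± 736.3 after Glenn (2290 to 5411), with Plvap at 927.9 to 6192 CPM as the most abundant of them. Hpgd had r = 0.84 with this sum over the 30 libraries and r = 0.03 after group means were removed. The mast cell sum, at 516.3 ± 74.4 CPM after sham (406.6 to 682.8) and 348.4 ± 43.9 after Glenn (281.2 to 422.4), gave r = 0.82 and 0.50. Kit (280.8 to 680 CPM), which fell and which capillary endothelium is also known to express, made up nearly all of that sum: Cpa3, Ms4a2, Mcpt1 and Tpsb2 each reached at most 4.99 CPM in a library, and Ms4a2 was at 0 in 9 libraries. With the mural sum given for Ptgir above, Hpgd had r = -0.89 and -0.38. The part of capillary make-up, mast cells or mural cells in the Hpgd result was not tested.

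Set side by side within a library, Ptgs2 and Hpgd separated the operations fully. Ptgs2 rose and Hpgd fell on every diet, so a ratio that differs between operations restates those changes and is not a further result. How often other pairs of genes separate the operations was not computed. The ratio of Ptgs2 to Hpgd counts was 0.0431 to 0.133 in the 15 sham libraries and 0.251 to 0.931 in the 15 Glenn libraries, and the highest value was Glenn deficient replicate 2. After group means were removed the 2 genes had r = 0.11, against -0.73 over all 30 libraries. The plot of Ptgs2 against Hpgd shows these levels.

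**Figure D3:**
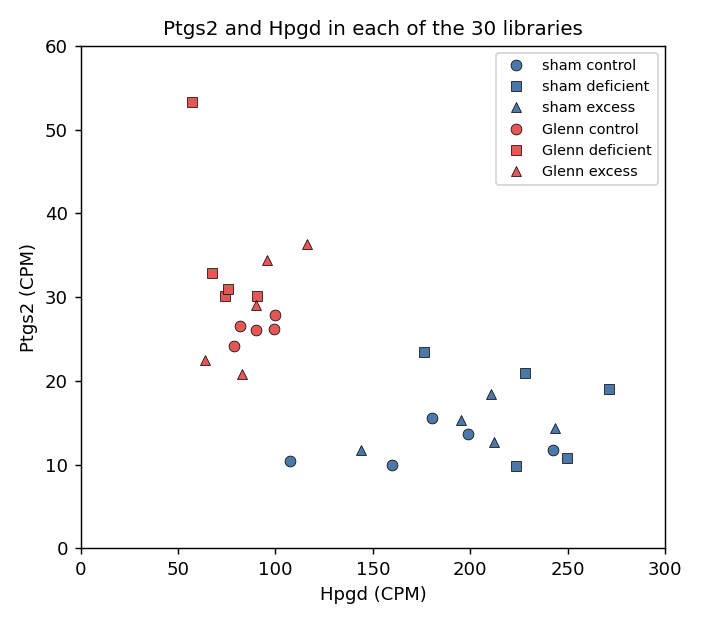
Ptgs2 (y axis, CPM) against Hpgd (x axis, CPM) in each of the 30 libraries; colour marks the operation and shape the diet. Sham libraries (blue) lie at high Hpgd and low Ptgs2 and Glenn libraries (red) at low Hpgd and high Ptgs2, with the ratio at 0.0431 to 0.133 in sham and 0.251 to 0.931 in Glenn libraries.

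Vitamin A content gave 1 call among the 8 genes. After sham surgery Ptgis was lower with excess than with control vitamin A, at 20.5 ± 3.29 against 41.8 ± 9.77 CPM (SD, n = 5 each); edgeR gave a log2 of -1.02 (SE 0.226, edgeR adjusted p = 0.048). In this comparison 0.241% of all genes passed. The 2 groups did not overlap, at 16.2 to 25.4 and 29.7 to 53.7 CPM, as held for 2.19% of all genes. All 5 sham excess libraries but only 2 of the 5 sham control libraries had low RT1-CE16.

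The Ptgis call held in DESeq2 (-1.03, adjusted p = 0.00144), in limma voom (-1.06, adjusted p = 0.0123), with DESeq2 size factors in edgeR (-1.03, adjusted p = 0.0483), with only the groups compared (-1.03, adjusted p = 0.0353) and with the replicate block (-1.01, adjusted p = 0.0114). It also held without sham control replicate 1 or 2 (edgeR adjusted p = 0.0395 and 0.0278). It did not hold when the RT1-CE16 level replaced the series (-0.52, edgeR adjusted p = 0.544), also with sex (-0.51, adjusted p = 0.452), nor in low RT1-CE16 libraries alone (-0.66, adjusted p = 0.9). It was also lost without the series term (-1.02, edgeR adjusted p = 0.219), in series A alone (-1.03, adjusted p = 0.125) and with no filter (-1.03, adjusted p = 0.0812). Leaving out sham control replicate 3, 4 or 5, or any 1 of the 5 sham excess libraries, gave -0.92 to -1.11 with edgeR adjusted p of 0.065 to 0.176. After Glenn the same diet difference of Ptgis was -0.96 (SE 0.257, edgeR adjusted p = 0.055), in a fit that holds the series as a term. The means were 37.2 ± 16.9 CPM in Glenn excess and 46.5 ± 18.2 in Glenn control (SD, n = 5 each), and the groups overlapped. Series B held 3 of the Glenn excess libraries and none of the Glenn control libraries. Over 22 other settings the difference ran from -1.19 to -0.33, with edgeR adjusted p up to 0.777. It passed in DESeq2 (-0.97, adjusted p = 0.0054), in limma voom (-0.87, adjusted p = 0.0337), without Glenn control replicate 1 (-1.10, adjusted p = 0.0139) and without Glenn excess replicate 3 (-1.06, adjusted p = 0.0345).

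In edgeR, none of the 8 genes passed for excess against control after Glenn (1.47% of all genes passed, and 2 of the 8 had an unadjusted p under 0.05), where DESeq2 and limma voom each called 1. None passed for deficient against control after sham (0% of all genes, 1 of 8 unadjusted), for excess against deficient after sham (0.0124%, 0 unadjusted), for deficient against control after Glenn (0.00618%, 3 unadjusted) or for excess against deficient after Glenn (0%, 0 unadjusted). DESeq2 and limma voom called 0 in these 4 comparisons, and DESeq2 gave no adjusted p for 3 genes in the last. The 3 genes with an unadjusted p under 0.05 for deficient against control after Glenn were Ptgis at -0.71, Ptgir at 1.01 and Hpgd at -0.41, with edgeR adjusted p of 0.305, 0.313 and 0.415. The interaction of surgery and diet passed for 0 of 8 genes in edgeR, limma voom and DESeq2 (0.00618% of all genes in edgeR), with 1, Hpgd, under an unadjusted p of 0.05.

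Ordered by their means, most neighbouring groups overlapped. For Ptgs2 the order was Glenn deficient (35.5 CPM), Glenn excess (28.6), Glenn control (26.2), sham deficient (16.8), sham excess (14.5) and sham control (12.3), and the step from Glenn control to sham deficient was the 1 without overlap. Glenn deficient (30.1 to 53.4 CPM) and Glenn control (24.2 to 27.8), which are not neighbours, did not overlap either. That difference did not pass (log2 0.44, edgeR adjusted p = 0.515), and the share of all genes without overlap there was not computed. For Ptger4 the 3 Glenn groups (5.38, 5.03 and 4.97 CPM) overlapped each other, and the lowest of them did not overlap the next group, sham excess at 1.99. Ptgis ran from Glenn control (46.5) to sham excess (20.5), and each group overlapped the next.

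Ptgis and Ptgs1 differed with the RT1-CE16 level of the libraries. Ptgis was at 50.5 ± 9.56 CPM in the 13 high libraries and 27.1 ± 7.83 in the 17 low ones (SD), a log2 difference within groups of 0.81 (SE 0.115, edgeR adjusted p = 4.53e-05). In all 5 groups that held both levels, every high library was above every low one. Ptgs1 was at 91.1 ± 13.8 CPM in high and 67.7 ± 10.7 in low libraries, a difference of 0.43 (SE 0.0733, edgeR adjusted p = 0.000351). The other 6 genes did not pass, and 6.53% of all genes did.

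Markers of mesothelium, the lining of the lung surface, moved with the same pair. Msln, Upk3b, Lrrn4 and Wt1, 4 of 5 listed markers (the fifth, Krt19, was not analysed here), summed to 420.0 ± 73.2 CPM in high (291.3 to 576.9) and 256.9 ± 60.1 in low RT1-CE16 libraries (142.4 to 386.6). The sum was 225.5 ± 18.4 CPM in sham excess and 389.0 ± 92.6 in sham control. None of the 4 passed between Glenn and sham averaged over diets (edgeR), and no marker was at 0 in any library. Over 30 libraries Ptgis followed the sum with r = 0.93 and Ptgs1 with r = 0.87, and after group means were removed with r = 0.94 and 0.92. Within groups Ptgis also had r = -0.74 (general capillary), 0.61 (macrophage), -0.56 (venous) and 0.51 (platelet). For Ptgs1 these were -0.57, 0.545, -0.37 and 0.49. With the endothelial sum Ptgis had r = -0.26, and -0.125 within groups. Ptgis and Ptgs1 followed each other with r = 0.88 in all libraries and 0.89 within groups. Whether mesothelial RNA, RNA of these other cells or RT1-CE16 type, alone or together, carry the Ptgis differences was not tested.

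**Figure D4:**
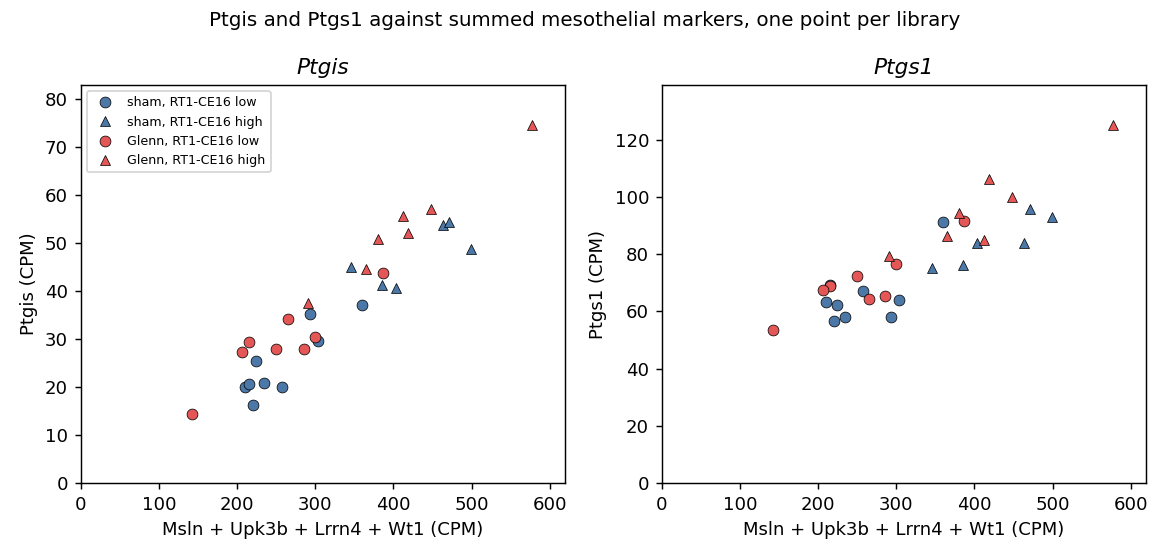
Ptgis (left, y axis, CPM) and Ptgs1 (right, y axis, CPM) against the summed CPM of Msln, Upk3b, Lrrn4 and Wt1 (x axis), one point per library; colour marks the operation and shape the RT1-CE16 level. Both genes are higher where the sum is higher, in sham and Glenn libraries (r = 0.93 and 0.87, n = 30), and triangles, the high RT1-CE16 libraries, lie to the upper right.

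The genes most like each member were found by Pearson correlation of log2(CPM + 1) over the 30 libraries among 12721 genes with at least 1 CPM. For Ptgis these were Upk1b (r = 0.95), a uroplakin, and Lrrn4 (0.93), 1 of the mesothelial markers above. For Ptgs1 they were Tcf23 and Gpc3 (both 0.91), which kept 0.92 and 0.91 within groups. Hpgd was most like Pcdha2 (0.94), of a protocadherin cluster whose genes share exons and so may share reads, and Dpp4 (0.94), a surface peptidase. Tbxas1 was most like Polr2m (0.95) and the protease inhibitor Serpina1 (0.94), Ptger4 like Dtx1 (0.90) and Tnfaip8l1 (0.89), and Ptgs2 like Btnl9 and Kif5b (both 0.87). For Ptgir, Fgfr1 (0.84) and Nrip2 (0.83) came first, and for Ptgds Fn3krp and Pmpca (both 0.65). After group means were removed r was 0.28 for Serpina1 with Tbxas1 and 0.42 for Dtx1 with Ptger4.

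The wider prostanoid pathway changed in both directions. Of 27 other listed genes 23 were tested and 13 changed in the averaged comparison, 7 higher and 6 lower. Of all tested genes 48.2% passed the same threshold (edgeR), 23.4% higher and 24.7% lower. The median log2 change of the 23 genes was 0.11. Among receptors the thromboxane receptor Tbxa2r fell from 14.4 ± 3.71 to 7.47 ± 1.19 CPM (log2 -0.96, edgeR adjusted p = 5.67e-09), in the same direction as Tbxas1. The operations did not overlap for Tbxa2r, as held for 5.83% of all tested genes. Ptger3, a prostaglandin E receptor that lowers cAMP, rose by a log2 of 0.59 (edgeR adjusted p = 0.00649), and Ptger1 did not pass (-0.06, adjusted p = 0.551). Ptgfrn, a binding partner of the prostaglandin F receptor, fell by 0.83 on the log2 scale (edgeR adjusted p = 8.56e-13). The prostaglandin F receptor Ptgfr passed at very low levels, 0.252 against 0.115 CPM (log2 2.44, edgeR adjusted p = 0.00644). Hpgds, Ptgdr and Ptgdr2 reached at most 13, 5 and 21 counts in a library and were not tested.

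At the start of the pathway, where phospholipases release arachidonic acid, Pla2g4c was at 3.89 ± 3.87 CPM after Glenn and 0.273 ± 0.412 after sham (SD, n = 15 each; log2 4.18, edgeR adjusted p = 6.51e-06). Its Glenn libraries varied as much as their mean. Pla2g4a, the main cytosolic enzyme, did not pass (0.17, edgeR adjusted p = 0.109), while Pla2g5 (0.75) and Pla2g6 (0.19) rose and Pla2g12a fell (-0.52). Of the prostaglandin E synthases Ptges2 fell slightly (-0.20, edgeR adjusted p = 0.0257) and Ptges3 did not pass (0.11, adjusted p = 0.0685). Downstream of Hpgd, the reductases Ptgr1 (0.76) and Ptgr2 (0.25) rose, so genes of clearance did not all fall. The exporter Abcc4 did not pass (0.11, edgeR adjusted p = 0.0932).

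**Figure D5:**
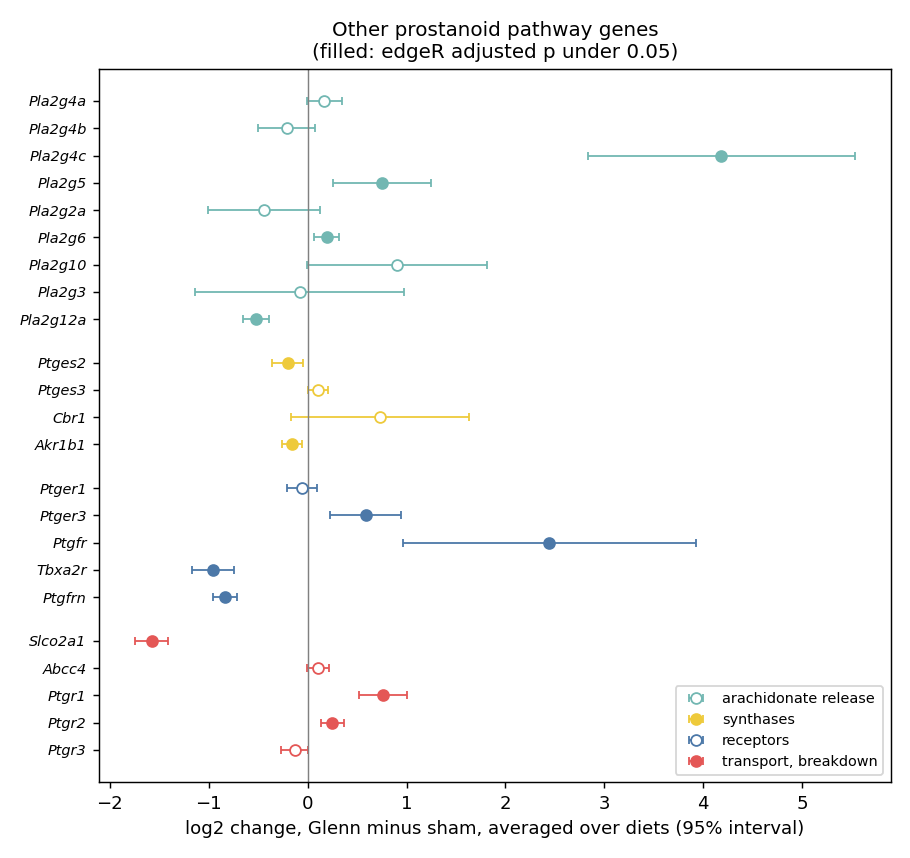
Log2 change between Glenn and sham averaged over diets (x axis) of 23 other prostanoid pathway genes grouped by role, with 95% intervals from edgeR; filled points passed an adjusted p of 0.05. Slco2a1 (-1.58) is the furthest left and Pla2g4c (4.18) the furthest right.

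Genes of the cAMP pathway below Ptgir, Ptger2 and Ptger4 also changed both ways, 15 of 24 tested rows, 8 higher and 7 lower, with a median log2 change of -0.007. The adenylyl cyclases, which make cAMP, were divided: Adcy3 rose from 6.51 ± 1.95 to 23.9 ± 10.3 CPM (log2 1.90, edgeR adjusted p = 1.31e-09, no overlap) and Adcy5 by 1.57 and Adcy2 by 0.37, while Adcy1 (-0.80), Adcy7 (-0.44) and Adcy9 (-0.28) fell and Adcy4 (-0.11) and Adcy6 (0.12) did not pass. Of the 6 tested phosphodiesterases, which break cAMP down, Pde4b (-0.83), Pde4a (-0.93) and Pde3a (-0.68) fell. The other 3 did not pass: Pde4d was at -0.14 (edgeR adjusted p = 0.0996), Pde3b at -0.05 (adjusted p = 0.737) and Pde8a at 0.07 (adjusted p = 0.268). Crem, a transcription factor whose gene responds to cAMP, rose from 67.0 ± 13.96 to 125.5 ± 17.3 CPM (log2 0.91, edgeR adjusted p = 1.09e-11, no overlap). Among other genes of this list Rapgef3 fell (-0.40, edgeR adjusted p = 7.46e-05), while Prkar1a (0.29), Prkar2b (0.32) and Prkacb (0.15) rose. Creb1 (-0.03, edgeR adjusted p = 0.669), Prkaca (0.02, adjusted p = 0.853) and Rapgef4 (-0.07, adjusted p = 0.465) did not pass. In the leukotriene branch, which uses the same arachidonic acid, 6 of 11 tested genes changed, 2 higher and 4 lower, with a median of -0.06. Alox5 (-0.84, edgeR adjusted p = 0.000266), its partner Alox5ap (-0.93) and the leukotriene C synthase Ltc4s (-0.77) fell, and the leukotriene receptor Cysltr2 rose (0.87). For each list 48.2% of all tested genes is the background, and 5.83% of all tested genes showed no overlap between operations.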

How the data were processed

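CD31+ rat lung cells were profiled by RNA sequencing in 30 libraries, 6 groups of 5. Groups and replicate numbers come from the titles. Per the labels' protocols, a PureLink kit was used for RNA and a SMART-Seq low-input kit for the libraries. The authors deposited estimated counts per gene from Salmon, named with FastQC, Trim Galore, Picard, STAR and build mRatBN7.2 in the submitters' processing notes; the role of each tool and the annotation release are not given in the sources used here. Of the deposited values 13.6% were not whole; they were rounded. Columns were matched to samples by library name.

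The main test was edgeR 4.0.16 (R 4.3.3): filterByExpr (minimum count 10, minimum total 15), TMM factors (0.94 to 1.06), a quasi-likelihood fit of the 6 group means and the library series (A or B, 2 number ranges in the library names), and Benjamini-Hochberg adjustment over 16171 genes at 0.05. Standard errors are the log2 change over the root of F, and 95% intervals use 23 residual degrees of freedom. CPM are TMM-scaled. Counting precision follows from the counts: medians were 49 for Ptgir and 4847.5 for Hpgd. RT1-CE16 was called high above 100 CPM, and sex was read from Ddx3y above 10 CPM. How male and female libraries fell over the 6 groups is not given here, which limits the reading of the fits with sex.

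Alternatives were DESeq2 1.42.0 and its size factors, limma 3.58.1 voom with quality weights, no series term, series A alone, no filter, only the groups compared, a replicate block, RT1-CE16 in place of the series with and without sex, and leaving out each library. The 2 RT1-CE16 subsets and the diet values of Ptgis were added after seeing the data. Libraries of a group differed by 20.1 to 119 times the counting noise (chi-square per degree of freedom over 60 pairs), so no pair agreed within that noise; this does not show that they came from separate animals.

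The genes, pathway lists and cell markers were chosen with earlier results of these data known. Named were all listed genes, pathway genes that passed by at least 2-fold with at least 1 CPM, receptors and transporters of the pathway list, the 2 genes most like each member, and defining markers; other pathway genes were named after their values were seen. Promoter windows are RefSeq, GRCr8, 250 bases. Markers of general capillary, arterial, venous, lymphatic, fibroblast, type 1 alveolar, leukocyte and mast cells were also read: of those tested, 0 of 5, 3 of 6, 2 of 5, 5 of 5, 6 of 6, 3 of 4, 0 of 4 and 1 of 5 were higher and 4, 3, 2, 0, 0, 1, 0 and 1 lower after Glenn (edgeR, averaged over diets). Of the 6 endothelial markers 1 was higher and 4 lower, and all 5 type 2 alveolar markers were lower.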

Additional observations from a re-analysis of the deposited data

Results flagged for a closer look

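In 48 sets of 5 libraries (8 genes in 6 groups), 3 held a highest library well apart from the rest, and about 2.4 such sets would arise by chance. Ptgs2 in Glenn deficient replicate 2 was at 53.4 CPM against 30.1 to 32.8 in the others, a gap of 0.882 of the group's range. Ptgir in sham excess replicate 5 was at 1.46 CPM against 0.50 to 0.763, a gap of 0.727 of the range. Ptgds in Glenn control replicate 4 was at 4.26 CPM against 2.12 to 2.71, a gap of 0.724 of the range. Leaving out each library in turn, that one included, gave a Ptgs2 change on the deficient diet of 0.89 to 1.31 on the log2 scale, past the threshold in edgeR each time.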

How the results depend on the processing

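Of 970 member values under other settings, 913 kept their direction and side of the threshold; of 395 counts of called genes, 375 stayed within 1.5 times. Of the 8 genes, those called on the excess diet between operations numbered 5, and 3 in low RT1-CE16 libraries alone; leaving out 1 library gave 3 (without Glenn excess replicate 2) to 5. Excess against control after sham gave 1 (Ptgis), and 0 with no series term, series A alone, no filter, RT1-CE16 in place of the series, RT1-CE16 and sex, or low RT1-CE16 libraries alone; leaving out 1 library gave 0 to 1. Excess against control after Glenn gave 0, and 1 in DESeq2 and limma voom; leaving out 1 library gave 0 to 1. The cause of these shifts was not tested.

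Changes of sign were all in values that did not pass. Ptgs1 on the deficient diet (0.06) was -4e-04 with no series term, -0.0361 in series A alone, -0.0382 in low RT1-CE16 libraries alone and -0.0134 to 0.2165 without 1 library. Ptgs1 on the excess diet (0.025) was -0.0615 in series A alone, -0.0647 with only the groups compared, -0.0269 with RT1-CE16, -0.0111 with RT1-CE16 and sex, -0.0621 in low RT1-CE16 libraries alone and -0.015 to 0.1309 without 1 library. Ptgis was -0.0668 on the deficient diet with no series term and -0.053 to 0.2931 on the control diet without 1 library. Ptgds was 0.3516 on the control diet in high RT1-CE16 libraries alone and -0.2962 to 0.0874 on the excess diet without 1 library.

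Same-numbered libraries of different groups had a median correlation of deviations of 0.104 (-0.25 to 0.29), against -0.024 (-0.42 to 0.41) for other numbers. Of 30 libraries, 17 had their highest mean correlation with their own number, where 6 would if the numbers were alike. The numbers were not alike: replicates 1 and 2 had low RT1-CE16 in every group, and replicates 4 and 5 high RT1-CE16 in every group but sham excess. Series B held only replicates 3 to 5. Only group means were removed before correlating, so this split stayed in the deviations. The count of 17 therefore cannot show pairing. Not every pair was over 0.1 and the labels give no shared source, so the samples were not treated as paired. With the replicate block the counts were the same for the 8 genes in every comparison (4, 5, 5 and 5 between operations), and 14, 16 and 6 against 13, 15 and 6 in the 3 pathway lists. Low counts limit Ptger2, Ptgir and Ptgds most.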
